A study of Mus musculus with 42 samples.

Results

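Mouse embryonic stem cells (ESCs) were differentiated for 6 days towards anterior definitive endoderm (ADE), the front part of the germ layer that lines the gut, with or without EPZ6438, a small molecule that inhibits EZH2, and the 3 arrays of the inhibitor condition labelled ADE_EPZ were compared with the 3 arrays of the vehicle condition labelled Control. These are 6 of the 42 arrays of the series, assigned to their groups by their labels. The comparison itself was chosen with earlier results of these data known. Both groups came from 1 ESC line, which carries a GFP reporter in the goosecoid gene (Gsc) and a RedStar reporter of Hhex, so all values describe a single line. The Control cells received the solvent DMSO, diluted 1:4000, before and during differentiation. The ADE_EPZ cells received the same DMSO as ESCs and 2.5 µM EPZ6438 only while they differentiated, and a further condition, ES_EPZ (3 arrays), received the inhibitor as ESCs and DMSO during differentiation. The other 33 arrays hold 11 untreated populations of 3 arrays each, ESCs, day 2 cells, and cells of days 3 to 6 sorted by their GFP (G) and RedStar (H) signal, whereas the labels name no sort for the day 6 cells of the inhibitor experiment. RNA of each sample was hybridised to a one-colour Agilent array, and each value is a normalised log2 intensity. The study describes its inhibitor expression data as coming from 3 independent experiments, whereas the labels give only replicate numbers. The p-values and standard errors rest on the spread between arrays of a group, pooled per probe over all 14 groups of the 42 arrays. They therefore do not measure the spread of these 6 arrays alone. Where cells are not sorted, fewer cells of a type and less RNA per cell cannot be told apart.

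EZH2 is the main catalytic subunit of polycomb repressive complex 2 (PRC2), which places methyl groups on lysine 27 of histone H3. The trimethylated form, H3K27me3, marks silent genes in ESCs, many of which encode regulators of development with CpG-rich promoters. When EZH2 is inhibited the mark is lost as cells divide, and genes that depend on it can be transcribed if their activators are present. The locus of Cdkn2a and Cdkn2b is a textbook PRC2 target.

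Of 21308 genes tested, 417 were higher and 170 were lower in ADE_EPZ than in Control when a call required a log2 difference of 1.5 or more and an adjusted p no higher than 0.01 (limma with Benjamini-Hochberg adjustment). This was 1.96% of all genes for the higher calls and 0.798% for the lower calls, and 71.0% of the called genes were higher. The median log2 difference was 1.90 over the higher genes and -1.91 over the lower genes, beside -0.01 over all genes. Differences of at least 2 were measured for 163 higher and 76 lower genes, and of at least 3 for 22 higher and 15 lower genes. Every one of the 417 and 170 genes moved in its direction in all 9 pairs of an ADE_EPZ with a Control array. Each slide held 1 array of both groups, and all called genes kept their direction within each of the 3 slides. The within-slide pairs are among the 9. The calls were made on these same arrays, so the lack of overlap was largely set by the call and is no separate evidence. The share of all genes without overlap was not counted.

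**Figure D1:**
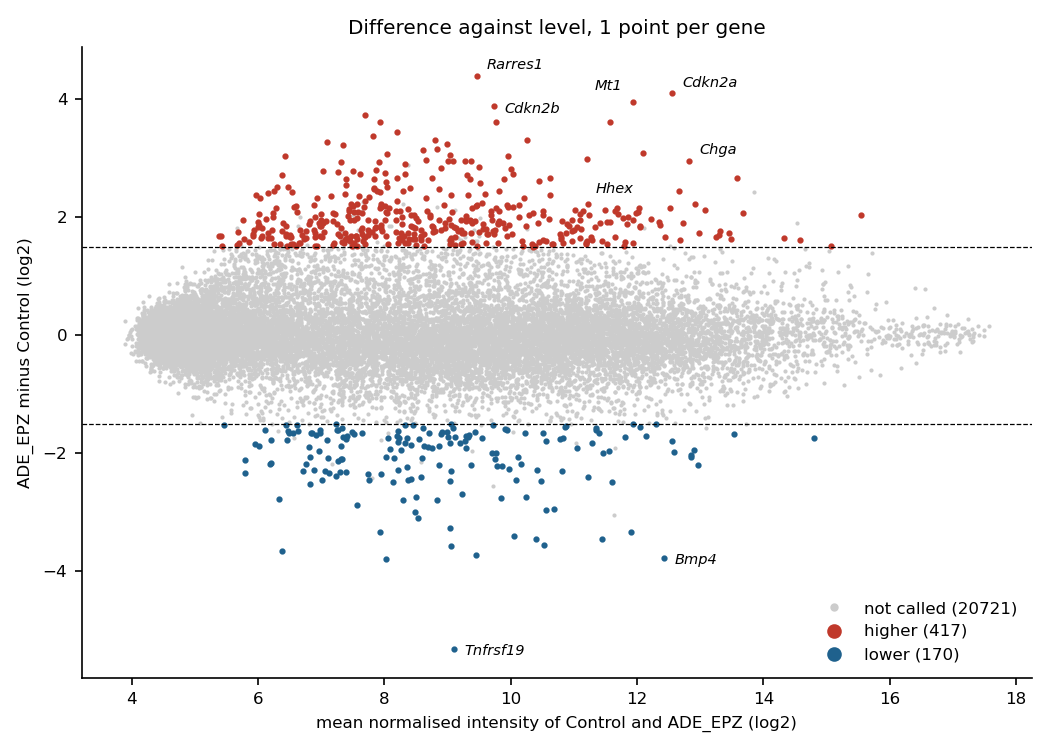
Log2 difference between ADE_EPZ and Control (y axis) against the mean normalised log2 intensity of both groups (x axis), with 1 point per gene and dashed lines at a difference of 1.5 in either direction. The 417 higher genes (red) and the 170 lower genes (blue) were spread from low to high intensities, and Rarres1 (4.40) and Tnfrsf19 (-5.32) had the most extreme differences.

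Most higher genes were already detected without the inhibitor: 349 of the 417 were well above background on all 3 Control arrays, 53 on 1 or 2, and 15 on none. For those 15 the fold was taken with a floor, the lowest value above background on each array. Lower values were raised to it. These folds ran from 2.75-fold to 7.73-fold. Values not above background can exceed the floor, so these folds are no strict lower limits. Over all genes, 27.5% were not above background on any Control array. Of the 170 lower genes, 152 were still above background on all 3 ADE_EPZ arrays, 10 on 1 or 2 and 8 on none. With the same floor those 8 were from 2.6-fold to 10.9-fold lower.

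The arrays of a group correlated with r between 0.988 and 0.993, no probe value was saturated, and the number of probes that the scanner software marked as well above background ran from 24446 for Control replicate 1 to 32251 for Control replicate 2. Of 12 genes used to check for definitive endoderm, all 12 were above background on all 3 arrays of ADE_EPZ or of Control. Detection alone does not identify the cell type. Hhex, Foxa1, Gata6, Gata4, Lhx1, Otx2 and Eomes were also above background on all 3 untreated ESC arrays. Foxa2 was on 2 of these, and Sox17, Cer1, Gsc and Cxcr4 were on none.

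The gene with the largest increase was Rarres1, on chromosome 3, a membrane protein named for its response to retinoids. Its log2 intensities were 7.34, 7.22 and 7.21 in Control and 12.08, 11.09 and 11.81 in ADE_EPZ. The groups lay far apart, with a difference of 4.40 ± 0.40 (standard error, adjusted p = 1.77e-08, limma), or 21.2-fold, and of 3.75, 4.59 and 4.87 within the 3 slides. Cdkn2a and Cdkn2b, both on chromosome 4, were also among the 10 largest increases, and encode inhibitors of the cyclin-dependent kinases CDK4 and CDK6 and, from Cdkn2a, also the p53 stabiliser ARF. Cdkn2a read 10.65, 10.69 and 10.17 in Control and 14.62, 14.65 and 14.58 in ADE_EPZ, a rise of 4.11 ± 0.52 (adjusted p = 2.62e-06, limma). Cdkn2b read 7.59, 8.14 and 7.65 against 11.55, 11.38 and 12.08, a rise of 3.88 ± 0.53 (adjusted p = 7.16e-06, limma). The replicates of both genes differed by less than 1 log2 unit within a group, and no array of one group reached the other.

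Of the other 7 genes among the 10 largest increases, 6 are described, and their roles varied. Mt1 (3.95) and Mt2 (3.62) encode metallothioneins, which bind zinc and copper. Myl3 (3.62) encodes a myosin light chain of heart and slow muscle, Tent5c (3.61) a poly(A) polymerase, and Ly6h (3.74) a small membrane-anchored protein of the Ly6 family. Lbhd2 (3.37) completed the group. In Control, Ly6h was above background on 2 of 3 arrays and the other 9 genes on all 3. None of these 10 calls was lost when any single array was left out.

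The largest decrease was that of Tnfrsf19, on chromosome 14, a receptor of the tumour necrosis factor family whose gene responds to Wnt signalling. It read 12.08, 11.25 and 11.94 in Control and 6.79, 7.08 and 5.44 in ADE_EPZ. The difference was -5.32 ± 0.62 (adjusted p = 9.15e-07, limma), or 39.9-fold, with within-slide values of -5.0, -5.81 and -5.16, and the highest ADE_EPZ array stayed more than 4 log2 units under the lowest Control array. Bmp4, also on chromosome 14, encodes a ligand that drives mesoderm formation. It read 14.38, 14.05 and 14.54 in Control and 10.45, 11.69 and 9.51 in ADE_EPZ, a difference of -3.77 ± 0.68 (adjusted p = 0.000232, limma). Its ADE_EPZ arrays were spread over more than 2 log2 units, yet all lay under the Control arrays.

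Of the other 8 largest decreases, 7 are described. Amhr2 (-3.57) encodes the type II receptor of anti-Müllerian hormone. Pcdh18 (-3.73) is a protocadherin, Pcsk5 (-3.56) a protease that activates secreted precursors, and Msx2 (-3.45) a homeobox transcription factor that BMP signals induce. Stard8 (-3.41) encodes a regulator of small GTPases, and Vstm2b (-3.45) and the predicted gene Gm38423 completed the group. Gm38423 was on none of the ADE_EPZ arrays above background, so its decrease is given with the floor, as 10.9-fold lower (adjusted p = 0.000103, limma). All 10 calls were kept in each fit without 1 array.

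**Figure D2:**
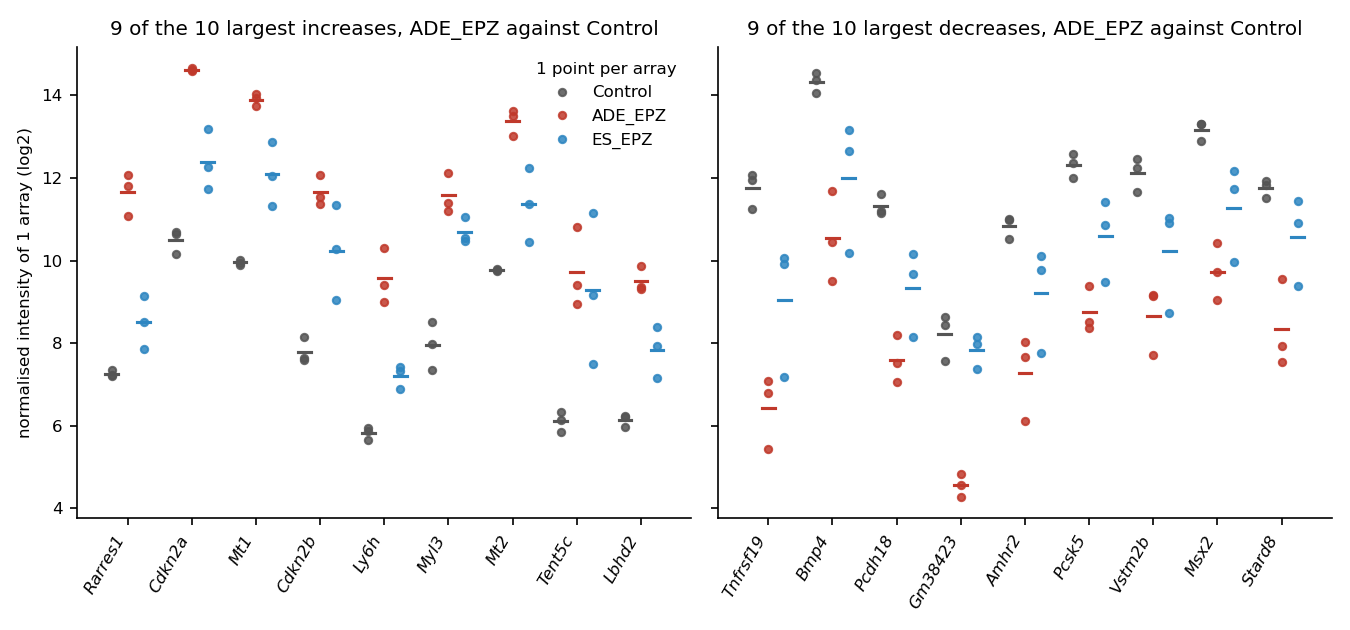
Normalised log2 intensity of 9 of the 10 genes with the largest increase (left) and 9 of the 10 with the largest decrease (right), with 1 point per array and a bar at the mean of the 3 arrays of Control (grey), ADE_EPZ (red) and ES_EPZ (blue). The rule that chose these genes required that Control and ADE_EPZ do not overlap, and the mean differences from Control reached 4.40 for Rarres1 and -5.32 for Tnfrsf19 in ADE_EPZ.

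The promoters of the first called genes on either side that the RefSeq promoter table holds are shown because CpG-rich promoters are the usual sites of PRC2. The 4 sequences run 5′ to 3′ on the strand of the gene, from 250 bases before the transcription start to 50 bases after it, and capitals mark each CpG dinucleotide. The build is GRCm38.p6, and all 4 genes lie on the minus strand. The window of Rarres1 is chr3:67515474-67515773, that of Cdkn2a chr4:89294570-89294869, that of Tnfrsf19 chr14:61046806-61047105 and that of Bmp4 chr14:46390620-46390919. The table holds 2 entries each for Cdkn2a and Tnfrsf19, of which the first was taken.
Rarres1: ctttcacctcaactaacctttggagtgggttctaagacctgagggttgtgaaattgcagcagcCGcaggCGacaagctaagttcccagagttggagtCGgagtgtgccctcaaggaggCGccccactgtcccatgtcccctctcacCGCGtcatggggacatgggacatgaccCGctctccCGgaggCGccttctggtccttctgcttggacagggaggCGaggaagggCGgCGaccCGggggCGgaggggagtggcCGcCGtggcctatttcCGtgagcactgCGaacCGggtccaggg
Cdkn2a: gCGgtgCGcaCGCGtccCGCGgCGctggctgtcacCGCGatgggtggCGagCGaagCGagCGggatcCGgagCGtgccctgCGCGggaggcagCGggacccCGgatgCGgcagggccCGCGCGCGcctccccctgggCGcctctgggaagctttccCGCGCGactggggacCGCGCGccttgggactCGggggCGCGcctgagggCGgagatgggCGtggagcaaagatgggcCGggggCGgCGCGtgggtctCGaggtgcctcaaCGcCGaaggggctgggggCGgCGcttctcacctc
Tnfrsf19: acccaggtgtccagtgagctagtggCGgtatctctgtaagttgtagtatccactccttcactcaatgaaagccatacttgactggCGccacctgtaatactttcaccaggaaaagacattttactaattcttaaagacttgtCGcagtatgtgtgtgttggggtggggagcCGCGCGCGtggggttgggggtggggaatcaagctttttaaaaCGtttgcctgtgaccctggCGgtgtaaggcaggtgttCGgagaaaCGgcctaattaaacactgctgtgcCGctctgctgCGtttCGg
Bmp4: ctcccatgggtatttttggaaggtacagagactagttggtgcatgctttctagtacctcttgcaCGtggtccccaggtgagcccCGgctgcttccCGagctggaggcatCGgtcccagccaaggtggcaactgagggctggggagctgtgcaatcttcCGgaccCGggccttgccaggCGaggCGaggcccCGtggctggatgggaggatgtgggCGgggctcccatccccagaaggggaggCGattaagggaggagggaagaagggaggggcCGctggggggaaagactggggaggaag

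The Cdkn2a window held 45 CpG in 300 bases, and those of Rarres1, Tnfrsf19 and Bmp4 held 19, 14 and 12. Windows were found for 307 of the 417 higher genes, 123 of the 170 lower genes and 16601 of all 21308 genes. The median number of CpG was 17 for higher genes, 19 for lower genes and 14 for all genes, and the median ratio of observed to expected CpG was 0.64, 0.70 and 0.61. At least 1 CpG was found in 99.7% of the windows of higher genes, in all 123 of lower genes and in 95.5% of all windows. The values of the higher and the lower genes lay close together, and no test was made of them.

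The counts of called members in this and all later gene lists stand beside 1.96% of all genes called higher and 0.798% called lower. No test was made of any list. The cell cycle inhibitors were described as a list of 7 CDK inhibitor genes, of which 3 rose, none fell and the median difference was 0.82. Cdkn1a, which encodes the p53-induced inhibitor p21, rose beside Cdkn2a and Cdkn2b. It read 10.88, 10.36 and 10.45 in Control and 12.36, 12.41 and 12.67 in ADE_EPZ, a difference of 1.92 ± 0.33 (adjusted p = 0.000158, limma), with no overlap. The other 4 members were not called, with 0.82 for Cdkn2c, 0.12 for Cdkn2d, -0.44 for Cdkn1b and -0.76 for Cdkn1c. Of 18 p53 target genes, 4 rose and none fell (median 0.56), namely Cdkn1a, Btg2 (1.89) and Ccng1 (1.58), which restrain proliferation, and Trp53inp1 (1.56), a stress protein. The call of Trp53inp1 was lost without ADE_EPZ replicate 2, and 75th percentile scaling of the arrays left 2 of the 4. Of 26 cell cycle and mitosis genes none was called, with a median of -0.23 and 3 members above 0. In the Bcl2 family (17 genes, median 0.36) the pro-apoptotic Bok rose by 3.31 and Bmf by 2.10, whereas Hrk, also pro-apoptotic, had a difference of -1.91 whose call was lost in 5 of the 6 fits that left out 1 array.

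The genes of the inhibited complex itself were not called. All 11 PRC2 subunit genes were detected and had differences below 0, from -0.13 for Suz12 to -1.17 for Phf19, with a median of -0.25. Ezh2, whose product the inhibitor binds, read 12.06, 11.75 and 11.76 in Control and 11.47, 11.60 and 11.26 in ADE_EPZ, a difference of -0.42 ± 0.17 (adjusted p = 0.142, limma) that was under the size required. The ADE_EPZ arrays of Ezh2 all read below the Control arrays, though by less than the threshold. Phf19 (adjusted p = 0.0028, limma) and Mtf2 (-0.54, adjusted p = 0.00282, limma), both accessory subunits, passed the p threshold but not the size. Of 19 genes of the other polycomb complex, PRC1, none was called (median -0.04).

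**Figure D3:**
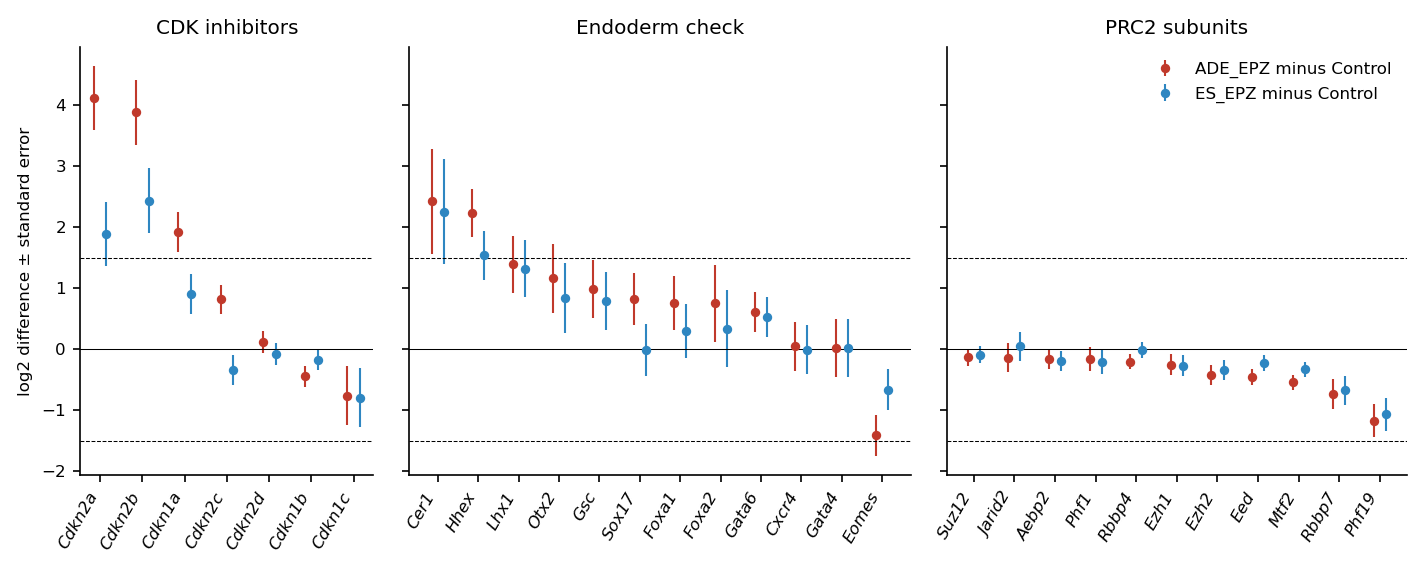
Log2 difference from Control with its standard error (y axis) for the CDK inhibitor genes, the 12 genes of the definitive endoderm check and the PRC2 subunit genes (x axis), in ADE_EPZ (red) and ES_EPZ (blue), with dashed lines at 1.5 in either direction. Cdkn2a and Cdkn2b stood at 4.11 and 3.88 in ADE_EPZ, Eomes at -1.41 was the lowest endoderm gene, and all 11 PRC2 genes lay between -1.17 and -0.13.

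Of the 12 genes of the endoderm check 1 was called, Hhex, a homeobox gene of the anterior endoderm and one of the reporters, and the median was 0.79 with 11 of 12 above 0. Hhex read 10.01, 10.52 and 9.79 in Control and 12.21, 12.38 and 12.43 in ADE_EPZ, which did not overlap and differed by 2.23 ± 0.40 (adjusted p = 0.000214, limma). Cer1, which encodes a secreted antagonist of Nodal, BMP and Wnt, read 12.42, 13.23 and 12.29 in Control and 14.69, 15.18 and 15.32 in ADE_EPZ. Its groups did not overlap, but the difference of 2.42 ± 0.86 missed the p threshold (adjusted p = 0.0693, limma). The spread behind this error was pooled over all groups, with an SD of 0.51 in Control, 0.33 in ADE_EPZ and 2.74 in untreated d5 Glow. Cer1 was called in 5 of 17 alternatives, among them the fits of the 9 and of the 6 arrays alone, and its adjusted p ran from 0.000678 to 0.196 over all of them. The pioneer factors Foxa2 (0.75) and Foxa1 (0.76), Sox17 (0.82), Gsc (0.99) and Otx2 (1.16) were not called, and Cxcr4 (0.05) and Gata4 (0.02) lay near 0. Eomes, the T-box factor that starts endoderm formation in the primitive streak, differed by -1.41 (adjusted p = 0.00355, limma), just short of the size required, and was called without Control replicate 2. Of 34 genes that the study listed as definitive endoderm, 9 rose and none fell (median 1.11), among them Pyy (3.08), Shisa2 (2.04) and Pax9 (3.93-fold higher with the floor, adjusted p = 8.58e-07, limma). The study used that list on these samples, so it is not independent evidence of direction.

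Secreted products and regulators of endodermal organs were among the higher genes. Of 15 gut peptide genes 3 rose and none fell (median 0.60), beside 1.96% of all genes higher and 0.798% lower. Ghrl, which encodes the appetite hormone ghrelin, read 5.46, 5.64 and 5.28 in Control, above background on 1 array, and 9.73, 8.69 and 7.79 in ADE_EPZ, a difference of 3.28 ± 0.37 (adjusted p = 7.58e-07, limma). The lowest ADE_EPZ array exceeded the highest Control array by over 2 log2 units. Pyy, the peptide YY gene (3.08), and Gip, which encodes an incretin (1.95), rose as well, and leaving out ADE_EPZ replicate 3 raised the count from 3 to 5. Of 15 regulators of liver, gut and pancreas 3 rose and none fell (median 0.25): Tbx1, a factor of the pharynx (2.97), Onecut2, a liver and pancreas factor (2.93), and Pdx1, the pancreas factor. Onecut2 had the smallest adjusted p of the genes named here (2.59e-11, limma), with 5.81, 6.05 and 5.69 in Control and 8.76, 8.82 and 8.77 in ADE_EPZ. The replicates of Onecut2 were tight and the groups wide apart. Pdx1 was not above background on any Control array and was 2.75-fold higher with the floor (adjusted p = 8.58e-07, limma), a call lost without Control replicate 1 or ADE_EPZ replicate 2. Of 22 apolipoproteins and secreted carriers 3 rose and none fell, but 9 of 22 were above 0 and the median was -0.08. The 3 were Rbp4, the plasma retinol carrier (2.12), Fgg, a fibrinogen chain (1.79), and Ambp, a plasma protease inhibitor precursor (1.57), which lost its call without Control replicate 2 or ADE_EPZ replicate 3.

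Of 22 retinoic acid genes, 3 rose and none fell (median 0.11): Rarres1, Rbp4 and Rarb, a retinoic acid receptor (1.91). Both metallothionein genes of the main pair rose within a list of 5 (median 1.52). Mt1 read 10.02, 9.95 and 9.89 in Control and 14.02, 13.74 and 13.93 in ADE_EPZ (adjusted p = 0.000716, limma). The arrays of a group were close to each other, and the groups were wide apart. Mt1 and Mt2 are near copies of one gene, so their probes may share signal.

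Among 12 target and feedback genes of canonical Wnt signalling 5 fell and none rose, with a median of -1.27 beside -0.01 over all genes. Tnfrsf19 was followed by Sp5, a transcription factor induced by Wnt (-2.97, adjusted p = 0.000694, limma), Rspo3, an enhancer of Wnt signalling, Axin2, a feedback inhibitor, and Lef1, a nuclear effector. Axin2 was not above background on any ADE_EPZ array and was 4.54-fold lower with the floor (adjusted p = 0.000252, limma). It read 6.61, 7.60 and 7.63 in Control and 4.99, 4.96 and 5.34 in ADE_EPZ. The call of Rspo3 (-2.75) was lost in 4 of 6 fits without 1 array, and without ADE_EPZ replicate 3 the count fell from 5 to 3. Of 19 Wnt ligand genes, Wnt9a rose (2.66) and Wnt3, which starts the primitive streak, fell (-2.46, adjusted p = 0.000466, limma), and without Control replicate 2 or ADE_EPZ replicate 1 a second ligand gene was called lower. Of 14 Wnt antagonist genes 3 rose and none fell (median 0.70), Shisa2, Sfrp1 (1.78) and Sfrp5 (1.61), of which the last lost its call in 5 of 6 such fits. Without Control replicate 1 or ADE_EPZ replicate 3 only 1 of the 3 antagonists was called.

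In the BMP pathway (33 genes, median -0.08) 3 genes fell, Bmp4, Msx2 and Smad6, and 1 rose. Smad6, an inhibitory SMAD induced by BMP, had -2.28 and lost its call in all 6 fits without 1 array, and Gdf2, which encodes BMP9, rose by 1.68. Among 12 hedgehog genes 3 fell and none rose (median -0.50), the transcriptional effectors Gli2 (-2.08, adjusted p = 1.15e-06, limma) and Gli1 (-1.76) and the co-receptor Gas1 (-1.57). The calls of Gli1 and Gas1 were each lost without 1 array, ADE_EPZ replicate 3 for Gli1 and ADE_EPZ replicate 2 for Gas1. Gli2 read 8.04, 8.14 and 8.29 in Control and 6.15, 6.43 and 5.65 in ADE_EPZ, well apart. Of 16 FGF receptor and ERK feedback genes 2 fell and none rose (median -0.30). The feedback gene Spred1 fell by 1.65 on the log2 scale (adjusted p = 1.82e-06, limma), and of 22 FGF ligand genes none was called. In the Notch pathway (20 genes, median 0.17) the ligand gene Dll1 rose by 1.90 and Mfng, a glycosyltransferase that modifies Notch, by 2.04, and Nrarp, a feedback inhibitor, had -1.53 and lost its call in 3 of 6 fits without 1 array.

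Some genes of mesoderm and of the epithelial-mesenchymal transition (EMT) were among the lower genes. Of 16 cadherin and EMT genes 5 fell and 1 rose (median -0.57), beside 0.798% of all genes lower and 1.96% higher. The mesenchymal cadherin Cdh11 fell most (-3.10, adjusted p = 0.000231, limma), with Zeb2 (-2.36), Cdh4 (-1.91), Snai1 (-1.80) and Zeb1 (-1.68), of which Zeb2, Snai1 and Zeb1 repress Cdh1. The call of Zeb1 was lost in 5 of 6 fits without 1 array. Cdh1, which encodes E-cadherin, read 11.04, 11.31 and 10.54 in Control and 13.20, 12.94 and 13.20 in ADE_EPZ, a difference of 2.15 ± 0.44 (adjusted p = 0.000916, limma). Its groups did not overlap, but its call was lost without Control replicate 3. Mixl1, a homeobox gene of the primitive streak, read 9.66, 9.27 and 9.90 against 6.00, 6.27 and 6.52, a difference of -3.34 ± 0.34 (adjusted p = 1.2e-07, limma). All ADE_EPZ arrays of Mixl1 lay far under the Control arrays.

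Of 20 genes of cardiac and lateral mesoderm 3 fell and none rose, Tbx5, a heart and forelimb factor (-2.46), Wt1, a factor of the kidney and mesothelium (-2.19), and Smarcd3, a heart subunit of a chromatin remodeller (-2.40, call lost in all 6 fits without 1 array), although the median of the list was 0.34. Of the 20 genes 12 were above 0, and the mean level of this list ran from 8.43 to 8.87 in Control and from 8.31 to 8.69 in ADE_EPZ. Of 22 blood and vessel genes Etv2, their early regulator, fell (-2.20) and none rose, with a mean level of 6.47 to 6.67 in Control and 6.63 to 6.73 in ADE_EPZ. The median of these 22 was 0.05, with 14 above 0. Meox1, a somite gene, fell (-2.44), while Pax3 and the Notch ligand gene Dll1 rose among the 15 paraxial mesoderm genes (mean level 6.45 to 6.56 in Control and 6.42 to 6.79 in ADE_EPZ), and Pax3 (2.08) lost its call in 4 of 6 such fits. The median of these 15 was 0.05, with 8 above 0. Of 21 genes that the study listed as mesoderm, 4 fell and none rose (Mixl1, Meox1, Cdh11 and Msx2), and this list was likewise used by the study on these samples. Its median was -0.26, with 7 of 21 above 0. The part of mesoderm cell numbers in these differences was not tested.

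Genes of lists named for other lineages were also among the higher genes. Of 53 neuronal genes 10 rose and none fell, against the 1.96% of all genes, and the median was 0.29. Nefh, which encodes the heavy neurofilament chain, read 6.91, 8.32 and 6.50 in Control and 10.88, 11.05 and 9.30 in ADE_EPZ, a difference of 3.16 ± 0.54 (adjusted p = 0.000133, limma). The Control arrays were spread over more than 1.5 log2 units without reaching those of ADE_EPZ, and within slide 2 the difference was 0.98. In untreated cells Nefh stood at 5.85 ± 0.67 in d5 Ghigh and was highest in d6 G+H+, at 11.51 ± 1.05 (SD, n = 3). Its means in ESCs (10.58) and day 2 cells (11.28) were close to this peak. The difference of d6 G+H+ from ESCs was not called (0.93, adjusted p = 0.273, limma). Chga, the chromogranin gene of neuroendocrine granules (2.96), and Crmp1, a gene of growth cone signalling (2.73), rose with the inhibitor as well. Among untreated populations Chga was also highest in d6 G+H+, with a mean of 14.62, whereas Crmp1 was highest in d3 G-, with 11.34. Stmn2, a microtubule regulator (2.20), lost its call in all 6 fits without 1 array. The mean level of the 53 genes was 6.75 to 6.95 in Control and 7.36 to 7.46 in ADE_EPZ, 37 of 53 were above background in a whole group, and their part in the result was not tested.

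Of 38 germline genes 4 rose and none fell (median 0.19), Rhox6 and Rhox9, X-linked homeobox genes of reproductive tissue, Rhox5, of the same cluster, and Tex19.1, a repressor of transposons. Rhox6 was on no Control array above background, with 5.06, 5.10 and 4.57, and read 8.82, 8.38 and 6.63 in ADE_EPZ, 7.73-fold higher with the floor (adjusted p = 1.95e-05, limma). This fold depended on ADE_EPZ replicate 3, without which it was 12.2-fold, and it fell to 5.71-fold without ADE_EPZ replicate 1. Rhox9 was likewise not above background in Control and 5.34-fold higher with the floor (adjusted p = 0.000136, limma), and since both genes are related copies their probes may share signal. The calls of Tex19.1 (2.19) and Rhox5 (1.84) were lost in 3 and 4 of 6 fits without 1 array, and the count fell to 2 without Control replicate 3 or ADE_EPZ replicate 1. The mean level of the list was 5.64 to 5.72 in Control and 6.06 to 6.17 in ADE_EPZ, and 16 of 38 were above background on no array. Esx1, an X-linked homeobox gene of placenta and testis, rose by 1.95 (adjusted p = 7.24e-06, limma).

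Pluripotency genes had a median of 0.76 over 29 genes, of which 2 rose and 1 fell. Tfcp2l1, a factor of the naive state, read 7.25, 7.26 and 7.09 in Control and 9.86, 8.67 and 9.40 in ADE_EPZ (2.11, adjusted p = 0.000103, limma), without overlap. Zfp42, the gene of REX1, had 1.51 and lost its call in 4 of 6 fits without 1 array, and Tbx3 fell (-3.34), a call lost without ADE_EPZ replicate 3. Without Control replicate 1, Control replicate 2, ADE_EPZ replicate 2 or ADE_EPZ replicate 3, 1 of the 2 higher calls was left. The mean level was 8.39 to 8.61 in Control and 8.98 to 9.27 in ADE_EPZ, and the part of remaining ESCs was not tested. Of 6 genes that the study singled out for the inhibitor on these samples, 4 were called higher: Zfp42, Nrn1, a neurite outgrowth gene (2.05), Cpe, a peptide-processing enzyme (1.90), and Mapk10, a neuronal JNK kinase (2.97-fold higher with the floor, adjusted p = 8.3e-05, limma). Without ADE_EPZ replicate 1, Cpe and Mapk10 were not called, nor was Cpe without Control replicate 3. Dppa5a (1.51, adjusted p = 0.0152, limma) and Zic1 (-0.26) were not called.

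Some Hox, Pax and T-box genes, many of which PRC2 holds silent in ESCs, were called. Their counts stand beside 1.96% of all genes called higher and 0.798% called lower. Of 39 Hox genes 2 rose and none fell (median 0.23), Hoxc4 and Hoxc13, which set position along the body axis. Hoxc4 read 6.05, 6.10 and 6.06 in Control and 8.47, 8.73 and 8.91 in ADE_EPZ, a difference of 2.64 ± 0.53 (adjusted p = 0.000778, limma). Hoxc13 was not above background on any Control array and was 4.22-fold higher with the floor (adjusted p = 3.56e-06, limma). Of 9 Pax genes Pax3 and Pax9 rose, and of 16 T-box genes Tbx1 and Tbx15, a limb and skeletal factor (2.00), rose while Tbx3 and Tbx5 fell. Of 98 other homeobox genes 8 rose and 4 fell (median 0.19). Alx1, a factor of the facial skeleton, rose most (3.24). None of the 19 SOX, 6 GATA or 5 Zic genes was called.

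Imprinted genes (34 on the array, median -0.16) moved both ways, with 3 higher and 4 lower. Dio3, which encodes a thyroid hormone deiodinase, rose by 2.79 and Phlda2, a growth-restraining placental gene, fell by 2.69 on the log2 scale. Zim1, a zinc finger gene, fell by 2.14, and Nnat, a brain gene (2.01), lost its call in 3 of 6 fits without 1 array. Without ADE_EPZ replicate 3, 1 imprinted gene was called higher. Of 18 visceral endoderm genes 3 rose and none fell (median 0.49; mean level 8.62 to 8.90 in Control and 9.21 to 9.56 in ADE_EPZ), Nrn1, Rhox5 and Cited1 (1.52), and without Control replicate 3 or ADE_EPZ replicate 1 only 1 of them was called. Of 28 trophoblast genes, Esx1 rose and none fell (mean level 8.05 to 8.33 in Control and 8.33 to 8.58 in ADE_EPZ). Of 13 neural crest genes Pax3 rose and Snai1 fell, with mean levels of 6.48 to 6.56 and 6.47 to 6.87.

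**Figure D4:**
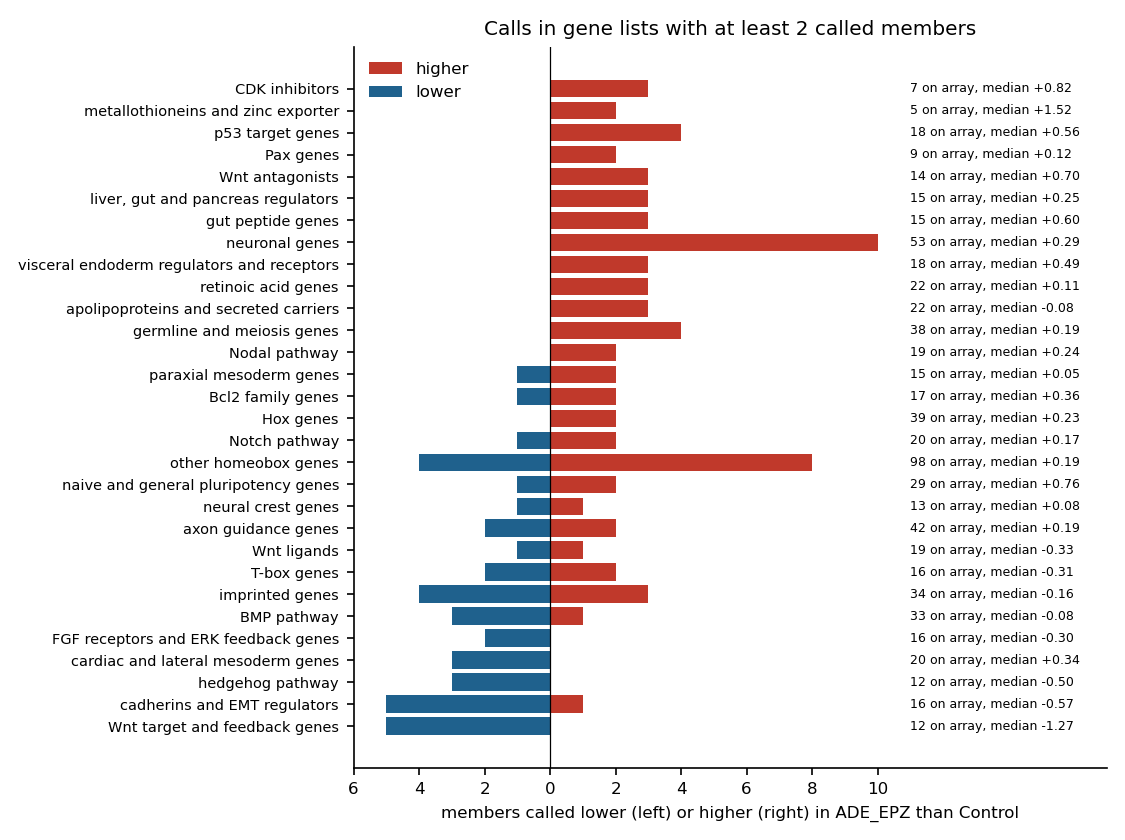
Number of members called higher (red, to the right) or lower (blue, to the left) in ADE_EPZ than in Control for each gene list with at least 2 called members, with the number of members on the array and their median log2 difference beside the bars. Neuronal genes had 10 higher and 0 lower calls of 53, whereas the Wnt target and feedback genes had 0 higher and 5 lower calls of 12. Over all genes 1.96% were called higher and 0.798% lower.

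Where the called genes stood in the untreated populations was described next, as the population with the highest mean. For 259 of the 417 higher genes (62.1%) this was the double positive day 6 population (G+H+), beside 15.9% of all genes and 21.1% of the 13911 genes above background on all 3 arrays of ADE_EPZ or of Control. A further 16 were highest in the day 6 G+H- cells, 77 (18.5%) in ESCs or day 2 cells, 57 (13.7%) at day 3 or 4, and 8 (1.92%) at day 5. Of the 170 lower genes, 72 (42.4%) were highest in the day 5 population of low GFP (Glow), beside 7.17% of all genes and 8.82% of those 13911, and 88 (51.8%) in any day 5 population. A further 56 (32.9%) were highest at day 3 or 4, 21 (12.4%) in ESCs or day 2 cells and 5 (2.94%) at day 6. Over all genes 21.7% were highest at day 6, and 11.6% were not above background in their highest population. The 5 genes were Hrk, the interferon response gene Usp18 (-2.0, call lost without Control replicate 1), Adssl1 (-1.65), Ppil6 (-1.68) and Ptgdr (-1.69), of which the last 3 were picked out after their values were seen. The call of Ppil6 was lost in 3 of 6 fits without 1 array, and those of Adssl1 and Ptgdr in 1 each.

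**Figure D5:**
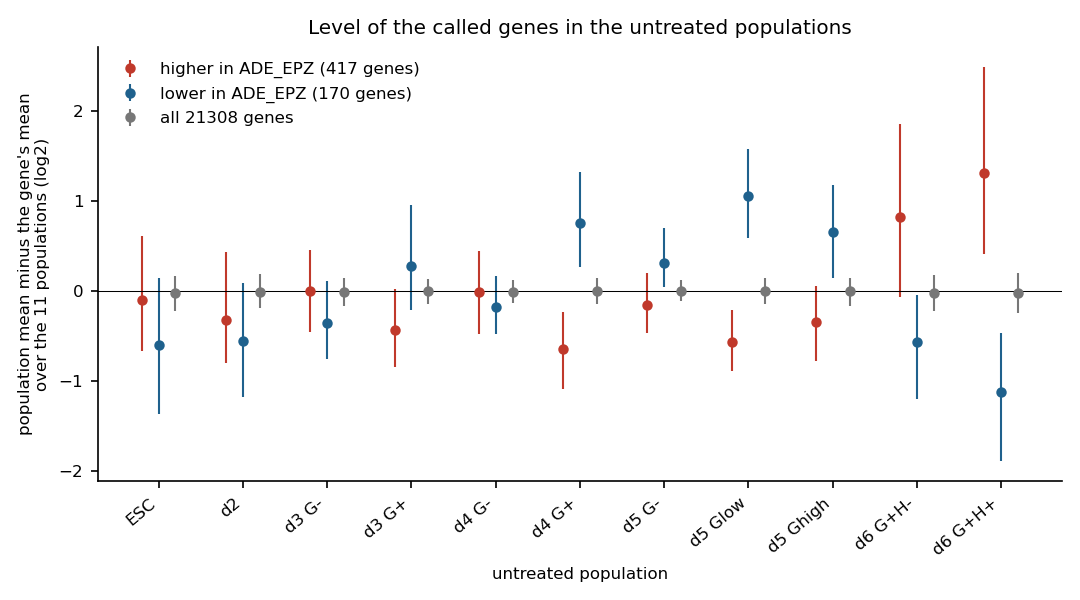
Median over genes of the population mean minus the gene's own mean over the 11 untreated populations (y axis, log2), with bars from the lower to the upper quartile, for the higher genes (red), the lower genes (blue) and all genes (grey) in each untreated population (x axis). The higher genes were highest in d6 G+H+ (median 1.31), whereas the lower genes were highest in d5 Glow (1.05) and lowest in d6 G+H+ (-1.12).

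The change that untreated cells went through from day 5 to day 6 was set beside these calls, as d6 G+H+ against the day 5 population of high GFP (Ghigh), which shares no array with ADE_EPZ or Control but the same fit and its estimate of spread. Of the 417 higher genes 241 (57.8%) were also higher in d6 G+H+ and none lower, with a median difference of 1.68, beside 2.73% higher and 1.43% lower of all genes. Of the 170 lower genes 93 (54.7%) were also lower in d6 G+H+ and 1 was higher, with a median of -1.75. That gene was Hrk. Of those 13911 genes above background, 4.13% were higher and 2.14% lower in d6 G+H+. Against ESCs, 193 of the 417 higher genes (46.3%) were higher in d6 G+H+ and 33 (7.91%) lower, beside 5.78% and 5.33% of all genes. Of the 170 lower genes, 39 (22.9%) were lower and 16 (9.41%) higher than in ESCs.

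Myl3 had a mean of 5.96 in d5 Ghigh and 11.87 ± 0.24 (SD, n = 3) in d6 G+H+, a rise of 5.90 in the untreated cells, and Chga rose by 5.39 in that step. Rarres1 rose by 3.78, Alx1 by 4.35, Tbx1 by 4.26 and Pyy by 4.40. Cdkn2a (2.33, adjusted p = 0.00165, limma) and Cdkn2b (2.69, adjusted p = 0.00042, limma) also rose in that untreated step. Both were highest in d6 G+H+ among the untreated populations, with means of 12.42 and 10.19. On the lower side Bmp4 fell by 5.76 on the log2 scale, Tnfrsf19 by 5.04, Vstm2b by 4.74 and Mixl1 by 3.25. A total of 176 higher genes (42.2%) were not called in the untreated step. They included Hoxc4 (-0.49), Tbx15 (-0.78), Esx1 (-0.75), Rhox6 (-0.04) and Nrn1 (0.12). The untreated arrays shared no slide with the inhibitor experiment, so levels of these arrays against ADE_EPZ cannot be told apart from that batch, and no such test was made.

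Among the 77 higher genes with their peak in ESCs or day 2 cells, the largest increases were those of Mt1, Mt2, Rhox6, AU015836 and Onecut2. Mt1 fell from 16.14 ± 0.24 in ESCs to 9.46 ± 0.54 in d5 Ghigh and stood at 13.39 ± 1.72 in d6 G+H+ (SD, n = 3 each). AU015836, an X-linked transcript, had 10.54 in ESCs and 5.03 in d5 Ghigh, and rose by 2.94 with the inhibitor, a call lost without ADE_EPZ replicate 1. Tfcp2l1 was at 11.89 ± 0.27 in ESCs and 5.75 ± 0.41 in d5 Ghigh, and at 8.24 ± 0.54 in d6 G+H+ (SD, n = 3 each). Rhox6 was at 8.47 in ESCs and was above background on none of the 6 day 6 arrays.

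ES_EPZ, in which the inhibitor was given before and not during differentiation, was set beside ADE_EPZ for the same genes. Both comparisons share the Control arrays. Over the 417 higher genes the median difference from Control was 1.90 in ADE_EPZ and 1.20 in ES_EPZ, and over the 170 lower genes it was -1.91 and -1.24, beside -0.01 over all genes in both. The genes were chosen on the difference between ADE_EPZ and Control, so the larger ADE_EPZ medians and the shared direction are partly set by that choice and by the shared arrays. Tested directly, 25 of all genes (0.117%) were higher and 3 (0.0141%) lower in ADE_EPZ than in ES_EPZ. In this fit ADE_EPZ exceeded ES_EPZ for Rarres1 (3.15, adjusted p = 2.42e-05, limma), Ghrl (2.84, adjusted p = 3.61e-05, limma) and Rhox6 (2.78, adjusted p = 0.000861, limma). The same held for Onecut2 (1.88, adjusted p = 9.11e-07, limma), Tbx15 (2.08, adjusted p = 7.5e-06, limma) and Hoxc13 (1.80, adjusted p = 0.000304, limma). Gm38423 was lower in ADE_EPZ than in ES_EPZ (-3.28, adjusted p = 0.00427, limma).

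These calls depended on the fit. ADE_EPZ and ES_EPZ arrays of the same number shared a slide and deviated together from their group means (r = 0.226, 0.219 and 0.302), so the number was also taken as a block, an alternative added after seeing the data. In a fit of the 9 arrays with this block 13 genes were higher and 1 lower, and of the 7 genes just named Rarres1 (adjusted p = 0.00681, limma), Onecut2 (adjusted p = 0.00799, limma) and Gm38423 (adjusted p = 0.00799, limma) were called. In a fit of only the 6 arrays with the block 0 genes were called by limma, the smallest adjusted p was 0.0303 and 3778 genes had an unadjusted p under 0.05. Within the 3 pairs Rhox6 differed by 3.38, 3.76 and 1.18 and Rarres1 by 3.57, 3.22 and 2.67.

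For other genes the direct difference did not pass. Cdkn2a read 12.26, 11.73 and 13.18 in ES_EPZ, between Control and ADE_EPZ on every array, and differed from ADE_EPZ by 2.22 (adjusted p = 0.0322, limma). Cdkn2b (1.44, adjusted p = 0.293, limma), Tnfrsf19 (-2.62, adjusted p = 0.034, limma), Bmp4 (-1.45, adjusted p = 0.523, limma) and Mixl1 (-1.63, adjusted p = 0.0125, limma) were not resolved either. Within the pairs of equal number these genes nevertheless differed in 1 direction, by 2.36, 2.92 and 1.40 for Cdkn2a and by -3.14, -2.98 and -1.72 for Tnfrsf19. For Bmp4 the pairs differed by -2.20, -1.46 and -0.68. None of the 5 genes was called with the block in the fit of the 9 arrays (adjusted p from 0.0346 for Cdkn2a to 0.367 for Bmp4, limma). Alx1 had 3.24 against Control in both conditions, Bok had 3.31 and 3.41, and Dio3 had 2.79 in ADE_EPZ and 4.00 in ES_EPZ. A difference that missed the threshold does not show that both treatments acted alike.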

How the data were processed

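The series holds 42 one-colour Agilent mouse arrays in 14 groups of 3, and 6 of them, ADE_EPZ and Control, were compared here. The deposited log2 values are the authors' normalised table, for which the submitters' processing notes name limma. Recomputing them from the deposited scanner intensity values (normexp background correction with an offset of 10, then quantile normalisation over the 42 arrays) gave r of at least 0.99998 per array. Spots marked as outliers were left out and spots of a probe averaged, which gave 55681 probes.

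Group means were estimated from all 42 arrays in R 4.3.3 by lmFit and eBayes of limma 3.58.1, with Benjamini-Hochberg adjustment over the 55681 probes, and a gene was called when its log2 difference was 1.5 or more in size and its adjusted p no higher than 0.01. The 21308 genes are symbols with a RefSeq accession, each by its RefSeq probe of largest mean over all arrays. A probe was above background by the scanner software's own mark. For a fold against a group with no such array, values under the lowest marked value of their array were raised to it. This floor left Hoxc13, Pax9, Rhox9 and Axin2 at their measured folds, so it gives no strict lower limit. In simulated data for this comparison with 200 of 21308 genes changed, 194 were called at a log2 change of 2.5, 188 at 2 and 101 at 1.5. The simulated residuals were independent and normal, with 1 spread per probe pooled over all groups. They held no correlation within slides or replicate numbers and no unequal spread between groups, so the rates may differ for the real arrays. Alternatives changed the background correction, normalisation, detection filter, arrays fitted, slide or replicate block, and left out each array in turn.

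Genes were named by a rule: the 10 largest changes each way among called genes whose groups did not overlap and that were above background on all 3 arrays of the higher group, up to 4 called members of each gene list, all members of 4 short lists, and the 5 largest increases among higher genes that peaked in untreated ESCs or day 2 cells and among those that peaked at day 6. A few genes that this rule chose are not reported here. Lef1 and Zeb1 complete the calls of their lists and were named after their values were seen. The comparison, its gene lists and its tests were chosen with earlier results of these data known. Promoter windows are from RefSeq (GRCm38.p6), matched by symbol. The number of arrays limits the precision.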

Additional observations from a re-analysis of the deposited data

Results flagged for a closer look

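The array also carries 27615 probes without a RefSeq accession, which the gene counts do not use. Of these, 64 (0.232%) were higher and 20 (0.0724%) were lower in ADE_EPZ than in Control by the same test and thresholds, and they were picked out because they show a difference in data outside the comparison of genes.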

How the results depend on the processing

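The counts of 417 higher and 170 lower genes stayed within 1.5 times under every alternative tried. Across background correction, scaling, filter, arrays fitted and slide they ran from 286 (offset of 50) to 555 (75th percentile scaling) higher genes and from 124 to 217 lower genes. The 75th percentile scaling moved the median of all probes to -0.11, and with that median set to 0, an alternative added after seeing the data, the counts were 603 and 184. With slide as a fixed block they were 411 and 175, and as a random block 436 and 182. Leaving out 1 array in turn gave 316 to 410 higher and 137 to 180 lower genes, and 247 and 98 genes were called in all 6 such fits. In all 17 settings 187 higher and 75 lower genes were called, and none of the called genes changed sign in any of them. With the replicate block the counts were 419 and 171. The r of deviations was 0.173, 0.070 and 0.121 between same-numbered Control and ADE_EPZ arrays. Between Control and ADE_EPZ arrays of unequal number it ran from -0.174 to 0.097. These few values do not settle whether equal numbers paired the samples. Same-numbered ADE_EPZ and ES_EPZ arrays shared a slide and deviated together (r = 0.226, 0.219 and 0.302). For that comparison the 25 higher and 3 lower genes became 13 and 1 with the replicate block in a fit of the 9 arrays (25 and 1 without it). In a fit of the 6 arrays they became 0 and 0 with the block (10 and 1 without it). All these fits were added after seeing the data. Among named genes, 2 that were not called changed sign: Cxcr4 (-0.09 under 75th percentile scaling, -0.12 without Control replicate 1, -0.07 without ADE_EPZ replicate 2 and -0.12 without ADE_EPZ replicate 3, with 0.36 the highest such value) and Gata4 (-0.06 under 75th percentile scaling and -0.16 without ADE_EPZ replicate 3, with 0.13 the highest such value). The cause was not tested. Counts of short lists moved more. With an offset of 50, 1 Hox, 1 Pax and 1 T-box gene were called higher, 2 imprinted genes lower and 1 of the genes the study singled out higher, and the call of Gdf2 was lost. Under 75th percentile scaling, 1 Wnt antagonist and 1 visceral endoderm gene were called higher. Of the 417 and 170 genes, 15 and 8 rest on a group at background, where the fold depends on the floor and the processing. Over the 17 settings the log2 difference of Hoxc13 ran from 1.35 to 4.17 and that of Pdx1 from 0.82 to 3.82.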

Other observations

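Of the called genes, 161 had a further RefSeq probe, and for 67 of these that probe was called in the same direction. For no gene was a further probe called in the opposite direction. A further 12 genes were higher and 9 were lower by a probe other than the one that represented them. The called genes were spread over the chromosomes, with 34 of 1254 genes higher on chromosome 4, 36 of 1783 on chromosome 2 and 13 of 831 on the X chromosome. On chromosome 6, 8 genes were higher and 13 were lower of 1135.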
